A study of Mus musculus with 4 samples.

Results

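The transcripts described here encode the enzymes that place and remove N6-methyladenosine (m6A) on RNA. They were the 10 genes of the deposited count table whose symbol was *Mettl3*, *Mettl14*, *Wtap*, *Rbm15*, *Rbm15b*, *Zc3h13*, *Cbll1*, *Mettl16*, *Fto* or *Alkbh5*, out of 52550 genes listed. All 10 passed the filter on low counts, which kept 13632 genes. Most m6A of mRNA is written by a nuclear complex in which METTL3 carries the catalytic activity and METTL14 helps to hold the RNA, while WTAP, RBM15 or its paralog RBM15B, ZC3H13 and CBLL1 (HAKAI) act as regulatory subunits that place the core on RNA. METTL16 is a separate methyltransferase with structured targets, among them the transcript of the S-adenosylmethionine synthetase *Mat2a*. FTO and ALKBH5 are the demethylases, or erasers, and readers such as YTHDF2 bind the modified RNA and promote its decay.

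The samples came from retinas of wild-type C57BL/6 mice at postnatal day 0 (P0). The cells were dissociated with papain, and an anti-YTHDF2 antibody was used for RNA immunoprecipitation (RIP), in which the protein is pulled down together with RNA that it holds. There were 2 biological replicates, each sequenced as starting RNA (input) and as eluate of the pulldown (RIP), so that the groups differed in the pulldown alone and shared age, strain and genotype. The number of animals behind a replicate was not given in the sources used here, so that p-values measure the spread between these samples and no more. A pulldown with control IgG was not analysed here. The comparison asks which transcripts were held more or less than the bulk of the transcriptome.

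Total counts ran from 19530226 to 39499994 per library, of which 2083594 to 4175459 fell on protein-coding genes. The 2 genes that hold nuclear ribosomal RNA sequence took up to 55.5% of the counts in the inputs and up to 87.8% in the RIP libraries, and mitochondrial genes up to 19.4% and 0.578%. Of 27 markers of retinal progenitors, ganglion cells, photoreceptor precursors and amacrine or horizontal cells, 26 passed the filter, with a summed level of 462 to 520 CPM (counts scaled to a common library size by total count and TMM factor) in the inputs and 360 to 362 CPM in the RIP libraries. Of 19 markers of lens, blood, endothelium, microglia, astrocytes and pigment epithelium, 14 did not pass, all 4 of the lens and all 4 of the pigment epithelium among them. The summed level of the other 5 was 32.0 to 33.3 CPM in the inputs and 66.2 to 69.5 CPM in the RIP libraries, of which *Kdr*, a vascular growth factor receptor, made up 30.1 CPM on average in the inputs and 64.2 CPM in the RIP libraries. The other endothelial markers did not go with it, since *Pecam1* had 7 counts in each input and 0 in each RIP library, and *Cdh5* had 3 to 7 counts in every library. The rest of the sum went both ways from input to RIP means. *Csf1r* went from 0.935 to 2.30 CPM and *Gfap* from 0.326 to 0.773 CPM. *Cx3cr1* went from 0.879 to 0.510 CPM and *Hba-a1* from 0.414 to 0.104 CPM. Among the listed markers of lens and pigment epithelium, *Cryaa*, *Cryga*, *Crygc*, *Rpe65* and *Tyr* were at 0 counts in all 4 libraries. The remaining ones were low but not absent. *Mitf* counts were 10 (input replicate 1), 4 (input replicate 2), 3 (RIP replicate 1) and 0 (RIP replicate 2). *Cryba1* was counted 3 times, only in input replicate 2, and *Ttr* 5 times, only in RIP replicate 2. The part of other cells in the values below was not tested. The inputs were further apart than the RIP libraries. Across 6858 genes that reached 50 counts in each of the 4 libraries, the median ratio of the higher to the lower replicate was 1.48 between inputs and 1.14 between RIP libraries.

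Because YTHDF2 recognises m6A, the reference transcripts of the 10 genes were searched for GGACT, written GGACU in RNA, the form in which m6A is most often found. Each transcript was the one with the longest annotated reading frame in GENCODE M21 (GRCm38), and only the sense strand was read. All 10 held the motif, as did 92.2% of 11905 tested protein-coding transcripts, so that its presence does not set them apart. The number of copies ran from 2 in *Rbm15* and *Mettl16* to 10 in *Alkbh5*, against a median of 3. The copies nearest to the stop codon are shown for 6 transcripts in which one lies within 204 nt of it, since m6A is known to gather there. This limit was taken from the members, as the distance of the farthest copy shown. The share of all tested transcripts with a copy so near was not counted, so that the 6 have no background. GGACT stands in capitals, with 10 bases on either side in lower case. These letters are a match in the reference and no measured site of methylation.
Alkbh5: tgccctcttgGGACTctggctaatc
Wtap: agaatggcttGGACTcaaatgtaaa
Mettl3: caccttaagaGGACTgtttacgcaa
Mettl14: cccaccccagGGACTggcagttgtc
Fto: cgagtcgtccGGACTttaccagtac
Zc3h13: gtttcagacgGGACTctgcaatccg
The *Alkbh5* copy lies 18 nt after the stop codon, in the 3′ untranslated region within exon 4 of 4, on the plus strand at chr11:60554423-60554447. In *Wtap* the copy lies 30 nt before the stop codon in exon 8 of 8, on the minus strand at chr17:12967490-12967514. That of *Mettl3* lies 60 nt after the stop codon (minus strand, chr14:52294908-52294932) and that of *Mettl14* 119 nt after it (minus strand, chr3:123369253-123369277). Those of *Fto* (plus strand, chr8:91666292-91666316) and *Zc3h13* (plus strand, chr14:75339423-75339447) stand in the reading frame, 127 and 204 nt before the stop codon. In the other 4 transcripts the nearest copy was 782 to 1583 nt away.

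Differences between RIP and input were tested over all 13632 genes with the quasi-likelihood test of edgeR. Enriched means a log2 fold change of 1 or more with an unadjusted p below 0.05, the limits seen in the study's own list of targets, and depleted means -1 or less with the same p. The words "rose" and "fell" are kept for an adjusted p under 0.05 (Benjamini-Hochberg over all tested genes). The calls went in both directions. The demethylase transcript *Alkbh5* rose about 4-fold in the pulldown, *Rbm15b* was called enriched at the limit, *Mettl14* and *Zc3h13* were called depleted, and the other 6 were not called. The 2 of 10 enriched stand beside 9.43% of all tested genes and the 2 depleted beside 17.2%. At the adjusted threshold 1 of 10 was higher in RIP, beside 3.48% of all genes, and none was lower, beside 9.78%. At an unadjusted p below 0.05, 2 were higher, beside 11.5% of all genes, and 2 were lower, beside 18.2%. DESeq2 put 1 transcript, *Zc3h13*, past the adjusted threshold in the lower direction, beside 9.87% of all genes with an adjusted p. With the replicate number as a block in the edgeR model there were 2, *Zc3h13* and *Mettl14*, beside 11.8%. The median log2 fold change of the 10 was 0.28 and that of all tested genes -0.05.

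**Figure D1:**
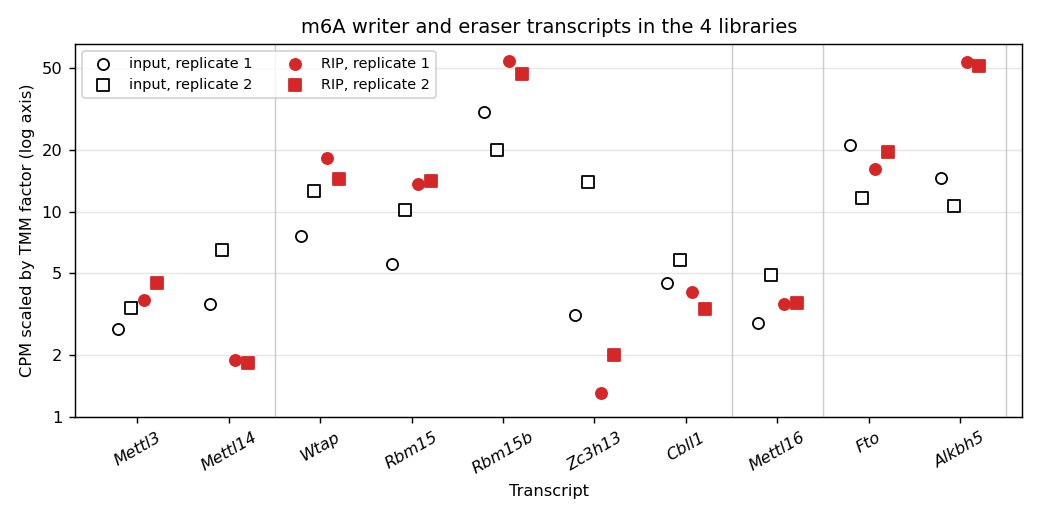
Level of each transcript in CPM, scaled by library size and TMM factor (y axis, logarithmic) in the inputs (open symbols) and RIP libraries (red), circles for replicate 1 and squares for replicate 2; grey lines separate methyltransferase core, regulatory subunits, *Mettl16* and demethylases. *Alkbh5* lies at 10.7 and 14.6 CPM in the inputs and at 51.1 and 53.7 CPM in the RIP libraries, whereas the inputs of *Zc3h13* are spread from 3.15 to 13.9 CPM.

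The transcripts of the catalytic core lay on opposite sides of their inputs. *Mettl3* (ENSMUSG00000022160, minus strand of chromosome 14, 52294841 to 52305128) was counted 89 times in input replicate 1, 116 times in input replicate 2, 94 times in RIP replicate 1 and 108 times in RIP replicate 2. Scaled by library size and TMM factor, this came to 2.67 and 3.38 CPM in the inputs and 3.73 and 4.49 CPM in the RIP libraries. The RIP libraries were the higher ones and the groups did not overlap, but the difference of 0.44 on the log2 scale (standard error 0.388, adjusted p = 0.487) did not pass the test. The gene overlaps *Tox4* on the opposite strand over 1561 nt, and how the counting treated strand was not given in the sources used here. Its partner *Mettl14* (ENSMUSG00000028114, minus strand of chromosome 3, 123368297 to 123386108) was lower after the pulldown in both replicates. The inputs held 118 and 224 of its counts but the RIP libraries 48 and 44, or 3.54 and 6.53 CPM against 1.90 and 1.83 CPM. Both RIP libraries were below both inputs, and they were close to each other while the inputs differed 1.84-fold. The log2 fold change of *Mettl14* was -1.43 (standard error 0.444, unadjusted p = 0.0111, adjusted p = 0.0685), depleted by the limits and short of the adjusted threshold. With the replicate number as a block in the model it was -1.37 with an adjusted p of 0.0498, and without input replicate 2 it was -0.92 (adjusted p = 0.0603), inside the fold limit. Without a RIP library it was -1.40 or -1.35, close to the value from all 4 libraries, but with an unadjusted p of edgeR of 0.0974 or 0.110 it was not called.

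Of the regulatory subunits, 3 lay higher in the pulldown and 2 lower. *Wtap*, whose product brings the core to nuclear speckles (ENSMUSG00000060475, minus strand of chromosome 17, 12966796 to 12994169), gave 253 and 435 input counts and 460 and 346 RIP counts. Its levels were 7.59 and 12.7 CPM in the inputs and 18.2 and 14.4 CPM in the RIP libraries, which were the higher ones by a narrow gap. The log2 fold change was 0.69 (standard error 0.378, adjusted p = 0.261), made up of a ratio of 1.26 on the log2 scale in replicate 1 and 0.18 in replicate 2. The *Wtap* transcript with the longest reading frame is short, at 2060 nt. With smooth trends on transcript length, read in this way, and on GC content taken out, *Wtap* was called enriched, at 1.24 with an adjusted p of 0.0241. Its longest annotated transcript has 3187 nt, and the gene model implied by counts and FPKM about 6095 nt. The trends were not fitted on these other lengths.

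The RNA-binding paralogs RBM15 and RBM15B guide the complex to its sites. *Rbm15* (ENSMUSG00000048109, minus strand of chromosome 3, 107325421 to 107333673) gave 185 and 348 input counts and 345 and 340 RIP counts, or 5.55 and 10.1 CPM against 13.7 and 14.1 CPM. The groups did not overlap, and the difference of 0.83 on the log2 scale (standard error 0.389, adjusted p = 0.195) did not pass the test. *Rbm15b* (ENSMUSG00000074102, minus strand of chromosome 9, 106880918 to 106887428) had the most input counts of any member, with 1021 and 683 input counts and 1375 and 1123 RIP counts. Its levels were 30.6 and 19.9 CPM in the inputs and 54.5 and 46.7 CPM in the RIP libraries. Again both RIP libraries stood above both inputs, and the order of the inputs was the reverse of that of *Rbm15*. The log2 fold change of *Rbm15b* was 1.002 (standard error 0.362, unadjusted p = 0.0229, adjusted p = 0.105), just past the fold limit. The call was lost without input replicate 2, at 0.72, and without either RIP library, at 0.99 and 1.20 with unadjusted p-values of edgeR of 0.114 and 0.0600. Its transcript has a single exon of 6511 nt with 56.4% GC, and with the trends on length and GC content taken out the value was 0.23 (adjusted p = 0.571). The gene lies whole within the annotated span of *Manf* on the same strand, a secreted neurotrophic factor that fell by 2.04 on the log2 scale (adjusted p = 0.00866). On the opposite strand *Dcaf1*, a substrate receptor of a ubiquitin ligase, overlaps it over 75 nt and rose by 1.41 on the log2 scale (adjusted p = 0.0496). Reads on sequence that *Rbm15b* shares with either gene are uncertain.

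*Zc3h13*, whose product anchors the regulatory subunits in the nucleus (ENSMUSG00000022000, plus strand of chromosome 14, 75284373 to 75344426), had the lowest fold change of the group. It was counted 105 and 478 times before the pulldown and 33 and 48 times after it. Its levels were 3.15 and 13.9 CPM in the inputs and 1.31 and 2.00 CPM in the RIP libraries. Both RIP libraries were the lower ones, but input replicate 2 held 4.42 times the level of input replicate 1, the widest gap of any member. The log2 fold change of *Zc3h13* was -2.37 (standard error 0.674, unadjusted p = 0.0071, adjusted p = 0.0519). It was -2.06 with an adjusted p of 0.00193 when the replicate number was a block, -3.08 without input replicate 1 and -0.93 without input replicate 2, where the call was lost. Without RIP replicate 1 it was -2.06 and also not called (unadjusted p of edgeR 0.0729). *Cbll1*, the transcript of the E3 ubiquitin ligase of the complex (ENSMUSG00000020659, minus strand of chromosome 12, 31484829 to 31499616), gave 150 and 199 input counts and 103 and 81 RIP counts. Its levels were 4.50 and 5.80 CPM in the inputs and 4.08 and 3.37 CPM in the RIP libraries. The groups just failed to touch, and the value of -0.47 on the log2 scale (standard error 0.382, adjusted p = 0.455) did not pass the test.

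*Mettl16* (ENSMUSG00000010554, plus strand of chromosome 11, 74770830 to 74828525) gave 96 and 168 input counts and 90 and 86 RIP counts. Its levels were 2.88 and 4.90 CPM in the inputs and 3.57 and 3.58 CPM in the RIP libraries, both between the inputs. At -0.12 on the log2 scale (standard error 0.415, adjusted p = 0.874) a difference was not detectable, and the sign turned under several other settings.

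Of the demethylase transcripts, one was enriched and the other was not called. *Alkbh5* (ENSMUSG00000042650, plus strand of chromosome 11, 60536381 to 60558512) was counted 488 and 366 times before the pulldown and 1356 and 1228 times after it. This came to 14.6 and 10.7 CPM in the inputs, a mean of 12.7 ± 2.81 CPM (SD, n = 2), and to 53.7 and 51.1 CPM in the RIP libraries, a mean of 52.4 ± 1.91 CPM (SD, n = 2). Both RIP libraries were over 3 times the higher input, and its log2 fold change, 2.05 with a standard error of 0.354 and an adjusted p of 0.00817, stood above 98.8% of all tested genes. It was 1.88 in replicate 1 and 2.26 in replicate 2. *Alkbh5* remained called enriched under all 13 other settings, from 1.49 with length and GC trends taken out to 2.40 with library size alone, with adjusted p-values of 3.15e-07 to 0.0264. With a RIP library left out the value was 2.11 or 2.18 and the adjusted p was 0.130 or 0.108, since the lone RIP library then borrows the wider spread of the inputs.

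*Fto* (ENSMUSG00000055932, plus strand of chromosome 8, 91313525 to 91668439) gave 707 and 399 input counts and 407 and 472 RIP counts. Its levels were 21.2 and 11.6 CPM in the inputs and 16.1 and 19.6 CPM in the RIP libraries. The RIP values lay between the inputs, and the log2 fold change was 0.12 (standard error 0.389, adjusted p = 0.865). The ratio was -0.39 on the log2 scale in replicate 1 and 0.75 in replicate 2, so that the replicates did not share a direction.

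**Figure D2:**
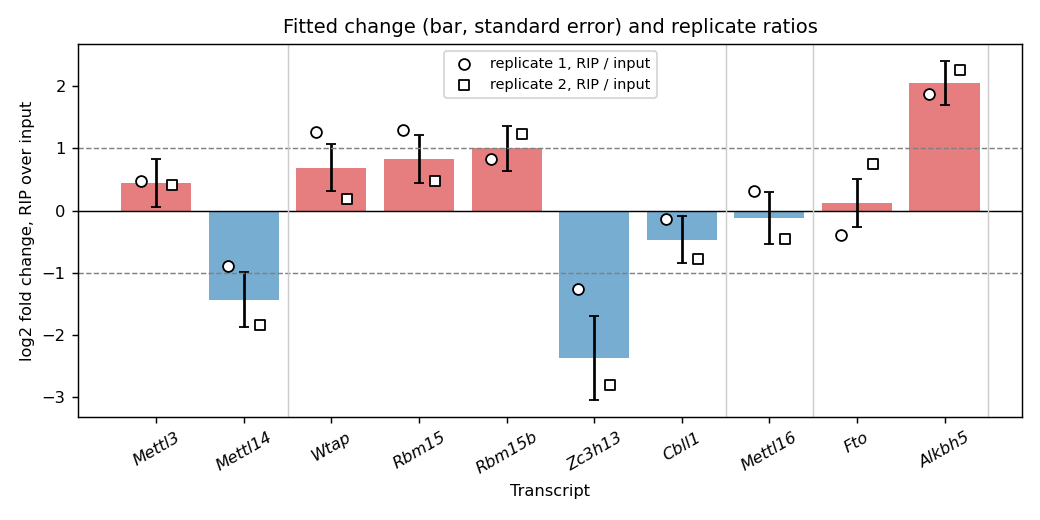
Fitted log2 fold change of RIP over input for each transcript (bars, red above 0 and blue below, with the standard error) and the log2 ratio of RIP to input CPM in replicate 1 (circles) and replicate 2 (squares); dashed lines mark log2 fold changes of -1 and 1. *Alkbh5* lies above 1 in both replicates (1.88 and 2.26), *Zc3h13* lies below -1 in both (-1.27 and -2.80), and *Mettl16* and *Fto* change sign between replicates.

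Counted by separation alone, 5 of 10 transcripts (*Mettl3*, *Wtap*, *Rbm15*, *Rbm15b* and *Alkbh5*) had both RIP libraries above both inputs, beside 29.6% of all tested genes. Another 3 (*Mettl14*, *Zc3h13* and *Cbll1*) had both below, beside 31.3%. *Mettl16* and *Fto* overlapped. Between the inputs, 7 members were lower in replicate 1 and 3 (*Rbm15b*, *Fto* and *Alkbh5*) were higher there. The ratio of the higher to the lower input ran from 1.27 for *Mettl3* to 4.42 for *Zc3h13* with a median of 1.69, and between the RIP libraries it went up to 1.53 for *Zc3h13* with a median of 1.19. Leaving out input replicate 2 ended the calls of *Zc3h13*, *Mettl14* and *Rbm15b* and brought *Rbm15* (1.32) and *Wtap* (1.10) past the limits for enrichment. Leaving out input replicate 1 ended none of the 4 calls. In both of these fits the spread comes from the closer RIP pair alone and the lone input is assumed to vary like it. Over all tested genes 2310 and 2484 then passed the adjusted threshold upward and downward without input replicate 1, and 2534 and 2721 without input replicate 2, so that a call made there says little.

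**Figure D3:**
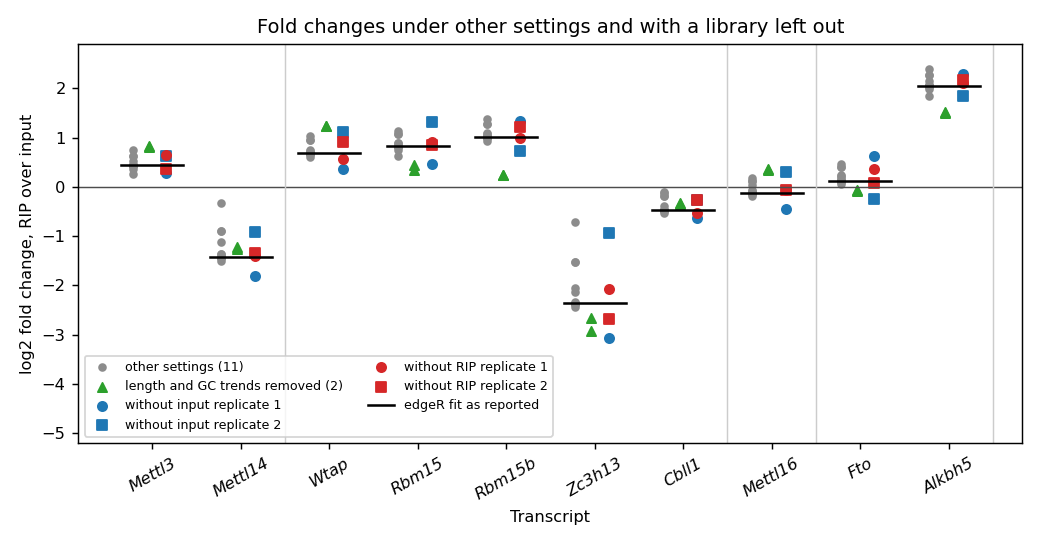
Log2 fold change of RIP over input (y axis) for each transcript as reported (black line), under 11 other settings of scaling, filter, test and unit (grey), with length and GC trends taken out without and with the replicate block (green) and with an input (blue) or RIP (red) library left out, circles for replicate 1 and squares for replicate 2. *Alkbh5* stays between 1.49 and 2.40 throughout, *Rbm15b* drops to 0.23 once the trends are taken out, and *Zc3h13* runs from -3.08 to -0.93 between the fits that leave out an input.

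The ratio of counts of a pair of transcripts within a library does not depend on how libraries are scaled, and 4 pairs were compared in this way. There were 0.754 and 0.518 *Mettl3* counts for each *Mettl14* count in the inputs against 1.96 and 2.45 in the RIP libraries. These ratios are not scaled for length, so that their distance from 1 is no order of levels. The ratio of the core pair differed by 1.81 on the log2 scale (3.51-fold), by 1.38 in replicate 1 and 2.24 in replicate 2. For *Alkbh5* over *Fto* the ratios were 0.690 and 0.917 in the inputs against 3.33 and 2.60 in the RIP libraries, a difference of 1.89 (3.70-fold). On the deposited FPKM, *Alkbh5* was above *Fto* in the inputs too (1.96 against 1.30 and 1.61 against 0.807 FPKM). Per kilobase of the transcript with the longest reading frame, *Fto* was the higher one there, at a mean of 4.61 against 2.21 CPM per kilobase. Whether the pulldown changed the order of this pair thus depends on the length used.

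*Wtap* over *Zc3h13*, both regulatory subunits, gave 2.41 and 0.910 in the inputs against 13.9 and 7.21 in the RIP libraries. This was the widest shift of the 4, 2.76 on the log2 scale (6.77-fold), and its inputs were also far apart. The paralogs did not separate. *Rbm15b* over *Rbm15* was 5.52 and 1.96 in the inputs against 3.99 and 3.30 in the RIP libraries, which lay between the inputs, at a difference of 0.14 that was -0.47 in replicate 1 and 0.75 in replicate 2. The exact two-sided permutation test over 4 libraries gave p = 0.33 (adjusted over the 4 pairs 0.44) for the 3 pairs that did not overlap, the smallest value it can give with 2 against 2, and p = 1 for the paralogs.

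**Figure D4:**
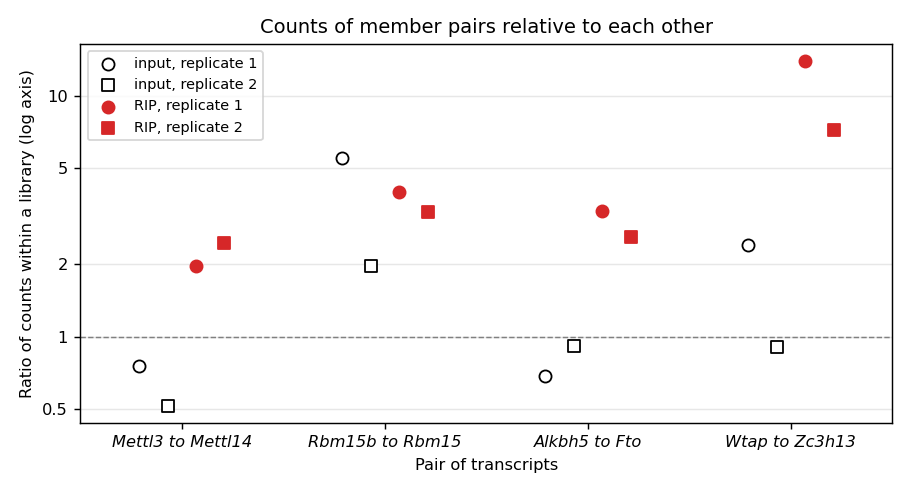
Ratio of counts of the first to the second transcript of each pair within a library (y axis, logarithmic), inputs open and RIP libraries red, circles for replicate 1 and squares for replicate 2; the dashed line marks equal counts. *Mettl3* to *Mettl14* and *Alkbh5* to *Fto* lie below 1 in both inputs and at 1.96 or higher in both RIP libraries, whereas the ratios of *Rbm15b* to *Rbm15* overlap.

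Levels of different transcripts were compared per length, on the deposited FPKM values, which are scaled for gene length and library size. These are levels of bulk RNA, in which fewer cells of a type and less RNA per cell cannot be told apart. In the inputs *Rbm15b* stood first with 3.77 and 2.77 FPKM and *Mettl16* last with 0.163 and 0.317 FPKM. Between them, in falling order of the input mean, came *Alkbh5*, *Wtap*, *Zc3h13*, *Cbll1*, *Fto*, *Rbm15*, *Mettl14* and *Mettl3*. Of the 9 steps in this order, 7 joined neighbours whose inputs overlapped. The steps without overlap were those from *Rbm15b* to *Alkbh5* (1.96 and 1.61 FPKM) and from *Mettl3* (0.394 and 0.564 FPKM) to *Mettl16*. In the RIP libraries *Alkbh5* was first at 10.7 and 7.56 FPKM, *Rbm15b* second at 9.94 and 6.36 FPKM, and *Mettl14* last at 0.297 and 0.214 FPKM. Neither end was separated, since *Rbm15b* overlapped *Alkbh5* there and *Mettl14* overlapped *Mettl16* and *Zc3h13* (0.246 and 0.283 FPKM).

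The order leans on the length that the authors gave a gene. Counts and FPKM together imply a gene model of about 15115 nt for *Mettl16* and 13978 nt for *Fto*, whereas their transcripts with the longest reading frame have 2073 and 3564 nt. Per kilobase of the longest annotated transcript, *Rbm15b* stayed first, *Wtap* in place 3 and *Mettl16* last, while *Fto* moved from place 6 to place 2 and *Mettl3* from place 9 to place 5. Per kilobase of the transcript with the longest reading frame, a length chosen after the data were seen, the order began with *Wtap*, *Fto* and *Rbm15b*, and *Mettl16* moved from place 10 to place 5. Against all 14399 protein-coding genes with a value above 0, the input FPKM of *Rbm15b* stood above 90.5%, that of *Alkbh5* above 82.4% and that of *Mettl3* above 51.1%.

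The transcripts differed in build. *Alkbh5* has a short reading frame of 1188 nt and a 3′ untranslated region of 4097 nt, longer than that of 93.0% of tested protein-coding transcripts, and 8 of its 10 GGACT copies lie there. Of all tested protein-coding transcripts, 1.51% held 8 or more copies in this region. *Zc3h13* is the opposite, with a reading frame of 5193 nt that holds all 7 of its copies, and a 3′ untranslated region of 662 nt. *Rbm15b* (3386 nt) and *Cbll1* (2343 nt) also have long 3′ untranslated regions, and *Mettl3* (141 nt) and *Mettl16* (136 nt) very short ones. All these values, and the correlations below, were read from the transcript with the longest reading frame alone. That transcript has 2073 nt for *Mettl16*, whose longest annotated transcript has 12584 nt. For *Mettl3* it has 2025 nt, against a gene model of about 5762 nt implied by counts and FPKM. The build of other isoforms was not read.

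Over the 10 members, which share the same 4 libraries, the Spearman correlation of the log2 fold change was 0.44 with the length of the 3′ untranslated region, 0.44 with GC content, 0.20 with the number of GGACT copies and 0.19 with transcript length. Over the 11905 tested protein-coding transcripts these were 0.30, 0.07, 0.39 and 0.48, so that long transcripts were as a rule higher in the pulldown. *Zc3h13* went against that rule at 6144 nt, and with the trends on length and GC content taken out it lay at -2.92 (adjusted p = 0.0317). The number of exons ran the other way, with a correlation of -0.79 over the members and 0.24 over all transcripts. The 3 members with the highest fold changes, *Alkbh5*, *Rbm15b* and *Rbm15*, have 4, 1 and 2 exons, and the 2 lowest, *Zc3h13* and *Mettl14*, have 19 and 11. *Mettl3* and *Mettl16*, at 0.44 and -0.12, have 11 exons as well. Among all 376 tested transcripts with a single exon the median log2 fold change was -0.23, and among the 1688 with over 20 exons it was 0.53. These correlations rest on few members and are given as a description.

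**Figure D5:**
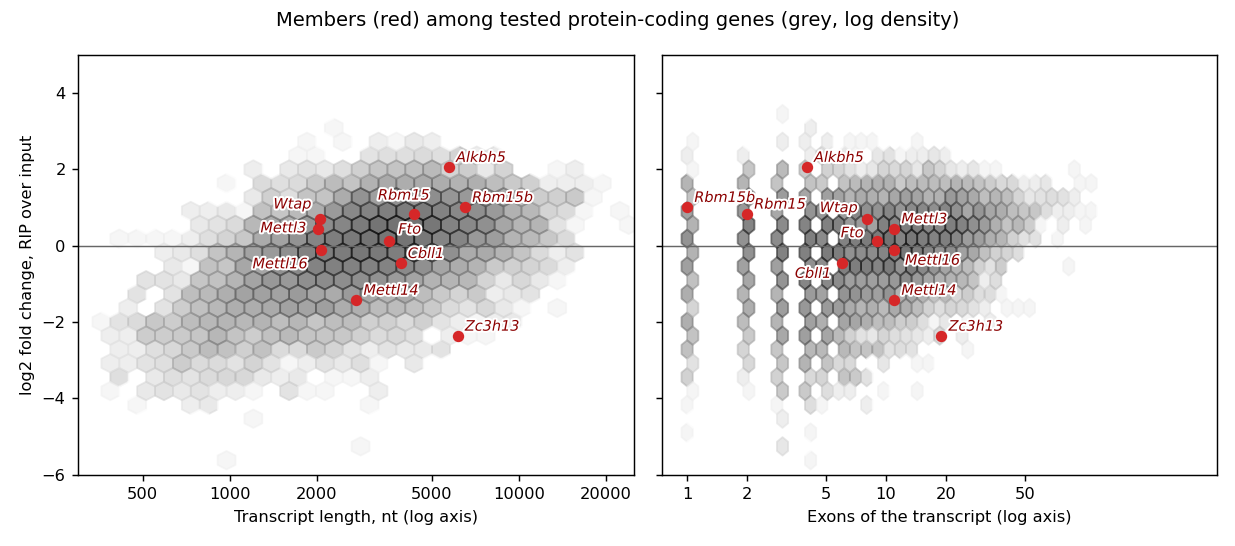
Log2 fold change of RIP over input (y axis) against transcript length in nt (left, logarithmic) and number of exons (right, logarithmic) for 11905 tested protein-coding genes (grey, darker where more genes lie) and the 10 members (red). Fold changes climb with length over all genes (Spearman 0.48), with *Zc3h13* at -2.37 and 6144 nt; over the members alone they fall with the number of exons (Spearman -0.79).

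The genes whose levels over the 4 libraries were nearest to those of *Alkbh5* (Euclidean distance of log2 CPM) included *Igsf9*, *Ddah2*, *Csnk1d* and *Lrp8*, at distances of 0.193 to 0.411. These 4 lay at log2 fold changes of 1.88 to 2.09, each with an adjusted p below 0.05. Nearest to *Zc3h13* were *Smc4*, *Onecut1*, *Ccdc88a*, *Eif2a* and *Mns1*, at distances of 0.454 to 0.845 and log2 fold changes of -2.38 to -1.83. *Smc4*, a condensin subunit, was at 3.87 and 13.5 CPM in the inputs and 1.55 and 2.37 CPM in the RIP libraries. The measure uses all 4 libraries, so that the gap between the inputs is part of the likeness. Fold changes near those of *Alkbh5* and *Zc3h13* thus follow from how the genes were picked and are no separate result.

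Other genes of the m6A pathway were read from lists, whose counts stand beside 9.43% enriched and 17.2% depleted over all tested genes. *Virma*, the scaffold of the writer complex, gave 81 and 179 input counts and 142 and 145 RIP counts, at a log2 fold change of 0.61 (adjusted p = 0.405). With input replicate 1 left out the value was 0.16, and with input replicate 2 left out it was 1.26. Of 5 other RNA adenosine methyltransferases and their cofactors, none was called enriched and 3 were called depleted. These were *Mettl5* at -1.79 (adjusted p = 0.107) and *Trmt112* at -1.56 (adjusted p = 0.0445), which together methylate ribosomal RNA, and *Zcchc4*, another enzyme of ribosomal RNA, at -1.22 (adjusted p = 0.130). Their list had a median of -1.22, beside -0.05 over all tested genes, and only *Trmt112* passed the adjusted threshold.

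Of the 7 other members of the AlkB family, to which *Alkbh5* and *Fto* belong, none was called enriched. Their median was -0.27, and 3 of them lay above 0. *Alkbh6* was called depleted, with 119 and 73 input counts and 21 and 20 RIP counts (log2 fold change -1.77, adjusted p = 0.0485). Its transcript is short, at 982 nt, and the part of length in this value was not tested. Among 16 tested transcripts of other *Mettl* genes, 0 were enriched and 2 depleted, *Mettl1* (-1.62) and *Mettl27* (-1.27), at a median of -0.51. With 2 of 16 the share is too near the 17.2% of all tested genes to set this list apart. Both called genes had adjusted p-values over 0.05, namely 0.102 and 0.107.

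*Mat2a*, whose product makes the methyl donor of the writers, S-adenosylmethionine, with 827 and 453 input counts and 593 and 658 RIP counts, was at 0.42 (adjusted p = 0.516), at 0.95 without input replicate 1 and at 0.036 without input replicate 2. Of 13 readers, 0 were enriched and 4 depleted, namely *Hnrnpa2b1* at -2.02 (adjusted p = 0.0220), *Ythdc1* at -1.37, *Hnrnpc* at -1.12 and *Igf2bp2* at -1.02, with adjusted p-values of 0.0655 to 0.121 for the latter 3. The first 3 of these encode nuclear RNA-binding proteins, but a link between place in the cell and the pulldown was not tested. Their inputs could be far apart. *Ythdc1* was at 3.99 and 10.8 CPM in the inputs and 3.37 and 2.33 CPM in the RIP libraries. *Hnrnpa2b1* was at 106 and 234 CPM against 45.9 and 38.2 CPM. *Elavl1*, on the same list, was at 0.13 and not called. *Ythdf2*, the transcript of the protein that was pulled down, gave 124 and 317 input counts and 212 and 171 RIP counts and was at 0.26 (adjusted p = 0.755), and the median of the readers was 0.13.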

How the data were processed

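RNA of 2 inputs and 2 anti-YTHDF2 RIP libraries was measured by RNA-seq, made with a stranded kit. The authors deposited counts per gene, not normalized, and FPKM, scaled by them for gene length and library size. The submitters' processing notes name STAR 2.5, HTSeq and GRCm38 without settings. Groups and replicate numbers came from the sample titles. The design text gives each replicate an input and a pulldown, so equal numbers mark a shared replicate. Replicate differences of inputs and RIP libraries had a Spearman correlation of -0.03 over 13632 genes. The block on replicate number was run as an alternative.

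The count model was edgeR 4.0.16 under R 4.3.3 (filterByExpr with a minimum count of 10 and total of 15, TMM, glmQLFit, glmQLFTest, Benjamini-Hochberg adjustment). Standard errors were derived from the F statistics. Alternatives used DESeq2 1.42.0, limma 3.58.1 with a pseudocount of 0.1 or 1 on the log2 FPKM scale and mgcv 1.9.3 (basis size 8). Annotation was GENCODE M21, which held 52403 of the 52550 identifiers. In a simulation of the comparison over 13227 genes, 84.2% of 196 changed genes and 4.00% of unchanged genes were called. All changes put in lay past the fold limit, and each gene had the same spread in both groups. The real inputs were further apart than the RIP libraries, so that these shares are no error rates of the calls above. Counts of the members ran from 33 to 1375 per library, and 2 libraries a group limit the precision of every fold change.

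The members, lists and alternatives were chosen with earlier results of these data known. Named were all members, listed genes called in either direction (at most 4 a list), *Virma*, *Mat2a*, *Ythdf2* and the 5 nearest genes of the highest and lowest member. *Manf*, *Dcaf1*, *Tox4* and the markers named were added with their values in view. A few genes that the rule would name are not reported here.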

Additional observations from a re-analysis of the deposited data

How the results depend on the processing

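*Alkbh5*, *Rbm15b*, *Rbm15*, *Wtap*, *Mettl3*, *Mettl14*, *Zc3h13* and *Cbll1* kept their direction under all 17 alternatives. *Mettl16* turned to 0.19 with library size alone, 0.12 on log2(FPKM + 0.1) with and without a filter, 0.028 on log2(FPKM + 1), 0.33 and 0.37 with length and GC trends removed without and with the replicate block, and ran from -0.45 to 0.31 with a library left out. *Fto* turned to -0.081 and -0.064 with those trends removed and ran from -0.25 to 0.62 with a library left out, where *Ythdf2* ran from -0.25 to 1.06. The *Rbm15b* to *Rbm15* ratio ran from -0.47 to 0.75 with a replicate left out.

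The 2 enriched members became 4 with library size alone (*Rbm15* and *Wtap* added) and 1 with the upper quartile, with TMM without mitochondrial and small noncoding genes, and with a minimum of 10 counts in each library, each without *Rbm15b*, and 3 on log2(FPKM + 0.1). With length and GC trends removed they were *Alkbh5* and *Wtap*. The 2 depleted became 1 on log2(FPKM + 0.1) and 0 on log2(FPKM + 1) or with no FPKM filter. The 1 higher at the adjusted threshold became 2 with DESeq2 and with the trends removed, with or without the block. The 0 lower became 1 with library size alone, upper quartile, DESeq2 and the trends removed with or without the block, and 2 with a minimum of 10 counts in each library, the exact test and the replicate block (*Zc3h13* and *Mettl14*), which changed no other call of a member. With a library left out, enriched members numbered 1 to 3, depleted 0 to 2, and those at the adjusted threshold 0 to 4 higher and 0 to 2 lower. Without input replicate 2, 0 were depleted and *Rbm15* and *Wtap* were enriched in place of *Rbm15b*. The causes were not tested. Library size alone moved the median of all genes from -0.05 to 0.27 and the enriched share of calls from 35.4% to 57.7%; on log2(FPKM + 0.1) this share was 45.6% and with the trends removed 48.1%.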
